A study of Mus musculus with 24 samples.

Results

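The clustered protocadherins are 57 genes of the count table whose symbols begin with Pcdha, Pcdhac, Pcdhb, Pcdhga, Pcdhgb or Pcdhgc and end in a number, out of 55418 genes in all. By symbol, 13 belong to the alpha cluster, 22 to the beta cluster and 22 to the gamma cluster. The members were chosen by name and not by their levels. After a filter on low counts 56 of them were tested, among 25372 tested genes, and the member that did not pass is Pcdhga10.

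RNA was sequenced from L4-L6 spinal cord of 24 C57BL/6J mice that were 8 to 10 weeks old at the start, 12 males and 12 females, in 8 groups of 3. The groups cross wild-type mice and mice with a knockout of Chrna7 in myeloid cells (called knockout here), both sexes, and vehicle or paclitaxel, a taxane that stabilises microtubules and causes neuropathy. Paclitaxel was given at 1 mg/kg in 4 injections on alternate days, with tissue collected on day 7. The labels give Kolliphor, ethanol and water as its solvent and call the other mice vehicle. The labels name no Cre driver, so which myeloid cells lost Chrna7 in the cord is not known from them.

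The total was 88812295 to 112158154 counts per library. Chrna7, the targeted gene, was at 9.38 to 15.9 CPM (counts scaled to the library's total) in 11 wild-type cords and 9.09 to 14.5 in 12 knockout cords, so whole-cord RNA does not separate the genotypes (log2 fold change -0.11, SE 0.06, edgeR adjusted p = 1.00). The library labelled wild-type female paclitaxel replicate 3 stood apart. Its 5 sensory ganglion neuron markers summed to 2791 CPM against 47.6 to 100.3 in the other libraries, and its 5 oligodendrocyte markers to 2982 CPM against 22891 to 27500. It is called the ganglion-like library and is described alone, so comparisons rest on 23 cords, with 2 instead of 3 wild-type paclitaxel females. Another library, wild-type male paclitaxel replicate 2, was the lowest of the 23 cords in 26 of the 56 tested members. It also had the lowest summed level of the 23 for 12 non-clustered protocadherins (692 CPM), and the highest for sensory ganglion neuron markers (100.3 CPM). In cords that sum is mostly Prph (47.2 to 99.9 CPM). The cord medians of Scn10a, Scn11a, Mrgprd and Trpv1 were 0.02, 0.17, 0 and 0.23 CPM. The astrocyte markers of this library were lowest too (4668 CPM), but the other cords of its group were close, at 4668 and 4773 CPM. The part of these in its low values was not tested.

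Clustered protocadherins are adhesion proteins of the cadherin superfamily that sit on neuronal membranes and bind only like molecules on a facing cell. Each neuron uses its own small choice of them, made by promoter selection with the looping factor CTCF and cohesin, which gives it a surface identity and lets its branches avoid each other. In an alpha or gamma gene a large variable exon encodes the part outside the cell and the membrane span, and it is spliced to constant exons that all genes of that cluster share, whereas a beta gene is 1 exon. The C-type genes at the ends of the alpha and gamma clusters are used widely rather than chosen cell by cell. In spinal cord the gamma cluster is known for keeping interneurons alive during development.

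All members lie on the plus strand of mouse chromosome 18 (GRCm38): the alpha cluster at chr18:36930184-37187661, the beta cluster at chr18:37264938-37524479 and the gamma cluster at chr18:37661793-37841873. How much of each gene could be counted depends on this layout, because a read that overlapped exons of more than 1 gene was not counted. Reads mapping to several places were dropped as well, and their number per gene was not measured. Of the 22 beta genes, 19 had all of their exon bases to themselves. The other beta genes are Pcdhb12, with 36.5% of its exon bases to itself beside the gene Gm37446, and the neighbours Pcdhb21 and Pcdhb22, with 90.3% and 93.1%, which overlap each other. No alpha gene had more than 51.4% of its exon bases to itself, and no gamma gene more than 68.5%, since the shared constant exons drop out.

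Some members were nearly or wholly uncountable. Pcdhga10 (chr18:37746993-37841873) shared every one of its 4732 exon bases, many of them with Gm26672, and was at 0 counts in all 24 libraries, which says nothing about its expression. Pcdha4 had 404 of 5768 bases to itself, beside Gm42416 and Gm38225, and received 2 to 25 counts per cord. Counts were made without strand, so reads of a member and of a gene on the opposite strand over it cannot be told apart. For this reason levels are compared between genes only per kilobase of own exon, meaning bases that belong to 1 gene.

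**Figure D1:**
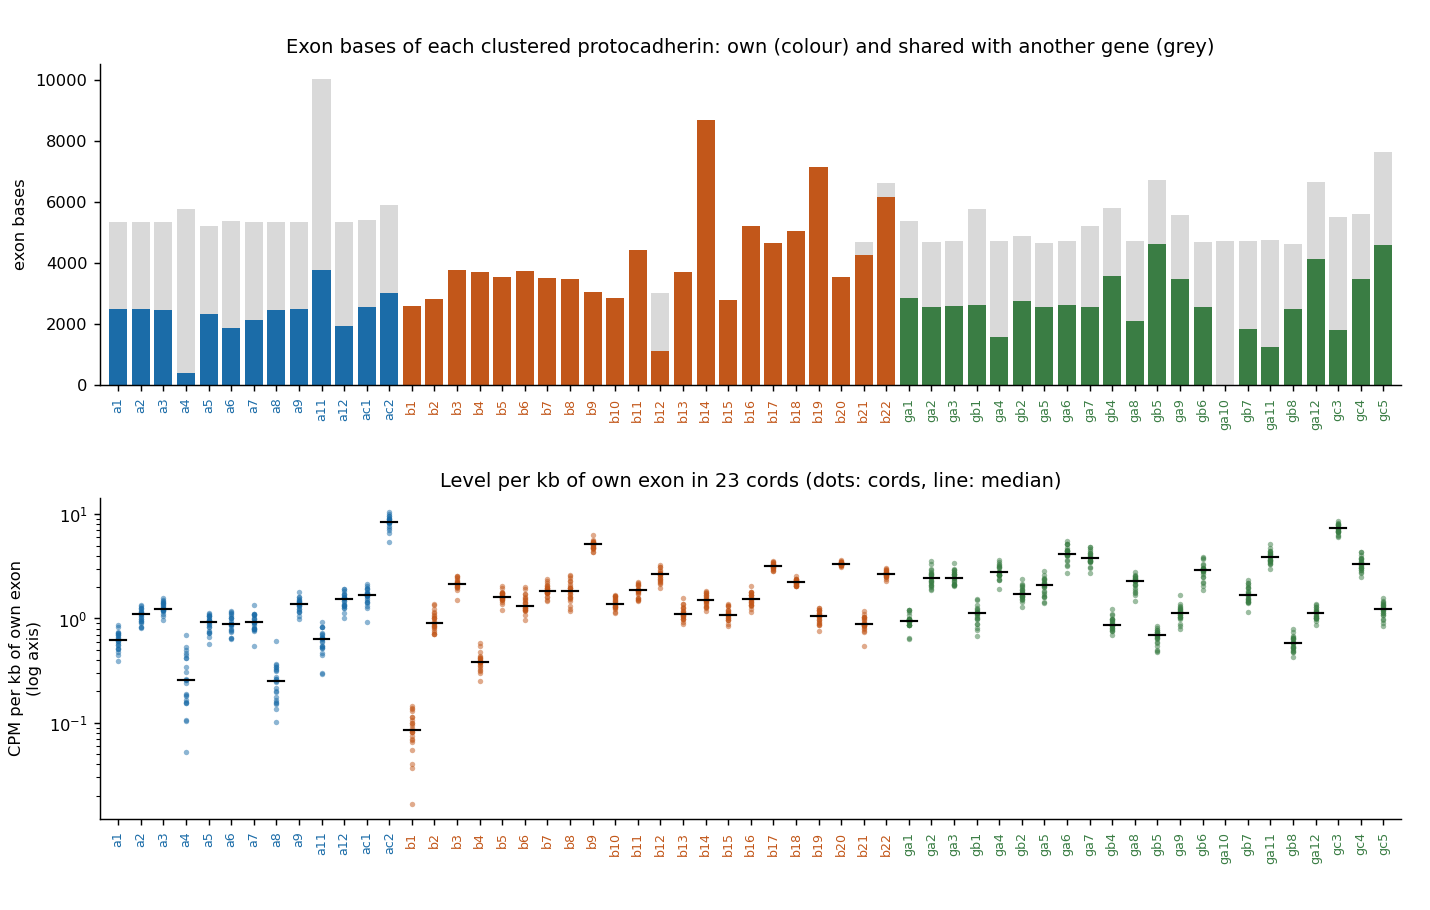
Upper plot: exon bases of each clustered protocadherin in order along the chromosome, with bases that belong to the gene alone in color and bases shared with another gene in grey; the bar of Pcdhga10 is grey throughout. Lower plot: CPM per kilobase of own exon on a log axis, with 1 dot per cord (23 cords) and a line at the median. Pcdhac2, Pcdhgc3 and Pcdhb9 have the highest medians of their clusters, and Pcdhb1 the lowest of all.

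In cord the 3 clusters were at like levels per own base, and a C-type member, Pcdhac2 and Pcdhgc3, was the highest of the alpha and of the gamma cluster. The summed level had a median of 52.7 CPM over the 23 cords for the alpha cluster (36.0 to 64.4), 161 CPM for beta (141 to 182) and 121 CPM for gamma (97.0 to 150). Per kilobase of own exon the medians were 1.73 CPM for alpha, 1.80 for beta and 2.06 for gamma. The larger beta sum therefore goes with more own bases. Beta genes took 49.1% of all counts of the family at the median cord, gamma genes 35.8% and alpha genes 15.6%.

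Pcdhac2, the C-type alpha gene next to the constant exons (chr18:37143503-37187657), alone held 48.1% of the alpha counts at the median cord (45.4 to 53.6%). Its level was 16.3 CPM at the lowest, 25.7 at the median and 31.6 at the highest cord, or 8.47 CPM per own kilobase at the median. Pcdhac1, the other C-type alpha gene, was at 1.68 CPM per own kilobase, and Pcdha12 followed at 1.53. The 11 alpha genes that are not C-type together had a median of 0.91 CPM per own kilobase, against 5.37 for both C-type genes together. Lowest in the cluster were Pcdha4 (0.26) and Pcdha8 (0.25). Pcdha8 has 2478 own bases, close to those of Pcdha9 (2481 bases, 1.37 CPM per own kilobase), so its low count does not come with fewer own bases. Loss of reads that map to several places was not measured for either gene.

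The gamma C-type genes differed among themselves. Pcdhgc3 was at 7.30 CPM per own kilobase, Pcdhgc4, which spinal interneurons need for survival, at 3.35, and Pcdhgc5 at 1.23, at the median cord. Pcdhga6 (4.16) and Pcdhga11 (3.86) were next to Pcdhgc3 in the order of the cluster. Pcdhgb8 (0.58) and Pcdhgb5 (0.69) were lowest. As groups, the 12 gamma A genes had a median of 2.26 CPM per own kilobase, the 7 gamma B genes 1.29 and the 3 gamma C genes 3.03. Pcdhga11 and Pcdhgc3 are partly covered by Gm26672 and BC037039, so their own stretches are short (1256 and 1821 bases).

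In the beta cluster Pcdhb9 was highest at 5.18 CPM per own kilobase (4.31 to 6.36), followed by Pcdhb20 at 3.34 (3.14 to 3.64) and Pcdhb17 at 3.21 (2.84 to 3.53). The ranges of Pcdhb20 and Pcdhb17 overlap, and Pcdhb9 lies above both in every cord. Pcdhb4 (0.38) and Pcdhb1 (0.09) were lowest, and Pcdhb1 received 4 to 35 counts per cord.

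The members differed in how much they varied over the 23 cords. This spread takes in differences between the 8 groups and counting noise, beside differences between mice of a group. Pcdhb20 was the steadiest, at 11.2 to 12.9 CPM over 23 cords (coefficient of variation 3.66%), and Pcdhb17 and Pcdhb18 followed with 5.99% and 6.23%. Pcdha8 varied from 0.25 to 1.505 CPM (42.4%), Pcdha11 from 1.12 to 3.50 CPM (25.7%) and Pcdha4, at its few counts, by 57.2%. edgeR also fitted a biological coefficient of variation within groups. Its median was 14.99% over 11 alpha, 10.9% over 21 beta and 12.8% over 21 gamma members, and 10.2% over 9139 tested genes. These members and genes are those at log2 CPM 0 to 5, and levels were not matched within that range. Pairs of gamma members deviated together: over 23 cords, after group means were removed, the median Pearson r between gamma members was 0.54 over 210 pairs. It was 0.28 within alpha, 0.19 within beta and 0.37 between alpha and gamma. These values describe the same libraries for every pair, which share depth and cell makeup.

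Paclitaxel against vehicle in wild-type cords is the first comparison of the design. Of the 56 tested members, 52 had a lower mean under paclitaxel, with a median log2 fold change of -0.18 against 0.01 over all tested genes, but none passed the test. In the alpha cluster 13 of 13 were lower (median -0.24), in beta 19 of 22 (-0.08) and in gamma 20 of 21 (-0.20). The test was edgeR's quasi-likelihood test on the 23 cords, adjusted over all 25372 tested genes by Benjamini and Hochberg, and a gene was called at an adjusted p under 0.05. It called 0 members, and 0% of all tested genes. With an unadjusted p under 0.05, 15 members were lower and 0 higher, against 3.97% of all tested genes lower and 3.99% higher. On the same cords DESeq2 called 1 member and 4 of all 25372 tested genes, and limma voom 0 and 0. The unadjusted count was 25 without wild-type male paclitaxel replicate 1 and 8 without wild-type female paclitaxel replicate 2. In bulk tissue, fewer cells of a type and less RNA per cell cannot be told apart.

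Pcdhga3, a gamma A gene, had the smallest p of the members in wild-type cords. Its levels in wild-type females were 8.94, 7.78 and 6.80 CPM under vehicle and 5.46 and 5.44 CPM under paclitaxel. In wild-type males they were 7.59, 7.58 and 7.29 CPM under vehicle and 6.89, 5.40 and 6.98 CPM under paclitaxel. Within each sex every paclitaxel cord was below every vehicle cord, and over both sexes the groups touched only where the lowest vehicle female met the highest paclitaxel males. The mean was 7.66 ± 0.714 CPM (SD, n = 6) under vehicle and 6.03 ± 0.823 CPM (SD, n = 5) under paclitaxel. The log2 fold change was -0.38 (SE 0.08, edgeR adjusted p = 0.477), so Pcdhga3 was not called. DESeq2 called it as the 1 member past its threshold, and edgeR with no filter on low counts called it as well.

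Pcdhga5 (-0.41, SE 0.13) and Pcdhga8 (-0.32, SE 0.11) had the next smallest p, each with an edgeR adjusted p of 0.528. Both are gamma A genes as well. Pcdhac2 went from 28.4 ± 2.48 CPM (SD, n = 6) to 24.0 ± 4.39 CPM (SD, n = 5), with 16.3 CPM in the low male library and 24.8 to 27.3 CPM in the other paclitaxel cords. Without that library the medians were -0.17 for alpha, -0.06 for beta and -0.13 for gamma. Several marker lists had lower means as well. All 5 astrocyte, 5 oligodendrocyte and 5 microglia markers were lower (medians -0.09, -0.10 and -0.14), as were 4 of 4 markers each of meningeal fibroblasts (-0.15), Schwann and satellite cells (-0.16) and skeletal muscle (-0.27), with 0 called by edgeR and, in that order, 1, 2, 2, 0, 0 and 0 at an unadjusted p under 0.05. Of the 5 neuron markers 4 had higher means (median 0.01). Their part in the members' values was not tested.

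In knockout cords the members were split. Of the 56, 33 had a lower and 23 a higher mean under paclitaxel (median -0.01, against 0.00 over all tested genes). The alpha median was -0.07, the beta median -0.05 and the gamma median 0.02, with 12 of 21 gamma members higher. edgeR called 0 members, against 0.0236% of all tested genes, and DESeq2 and limma voom called 0 as well. Without adjustment, 5 members were lower and 1 higher at p under 0.05, against 5.77% and 5.51% of all tested genes, which is near the background. Without knockout female paclitaxel replicate 3 this count of 6 was 3. Pcdhga3 was at 6.31 ± 0.604 CPM under vehicle and 6.10 ± 0.596 CPM under paclitaxel (SD, n = 6 each). In the same comparison 5 of 5 endothelial markers (median 0.41, 5 at an unadjusted p under 0.05), 5 of 5 neuron markers (0.06) and 4 of 4 skeletal muscle markers (1.16) had higher means, with 0 called by edgeR, and their part in the members' values was not tested.

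The smallest p in knockout cords belonged to Pcdhb19 (-0.21, SE 0.08), Pcdhgb7 (-0.27, SE 0.11) and Pcdhb2 (-0.28, SE 0.11), with edgeR adjusted p of 0.324, 0.332 and 0.354. Pcdhb10 was the member higher at an unadjusted p under 0.05 (0.19, SE 0.09, edgeR adjusted p = 0.406). Pcdhac2 had vehicle levels of 27.1, 29.3 and 25.7 CPM in females and 25.6, 26.01 and 27.2 CPM in males. Its paclitaxel levels were 21.4, 25.3 and 22.3 CPM in females and 25.4, 23.5 and 20.2 CPM in males. Every paclitaxel cord was thus below every vehicle cord, and the log2 fold change was -0.22 (SE 0.10, edgeR adjusted p = 0.423).

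Over both genotypes, 49 of the 56 members had a lower mean under paclitaxel (median -0.10). This included 13 of 13 alpha (-0.14), 17 of 22 beta (-0.07) and 19 of 21 gamma members (-0.08). edgeR called 0 members, against 0.0197% of all tested genes. DESeq2 called 3 members and 167 of all 25372 tested genes, and limma voom 0 and 5. Unadjusted, 15 members were lower and 0 higher at p under 0.05, against 5.75% lower and 4.43% higher of all tested genes. That count was 8 when the fit left out wild-type female paclitaxel replicate 2. Leaving out knockout female vehicle replicate 1, wild-type male paclitaxel replicate 2 or knockout male vehicle replicate 2 gave 9. The smallest p belonged to Pcdhga3 (-0.21, SE 0.06), Pcdhb2 (-0.31, SE 0.08) and Pcdhb19 (-0.20, SE 0.06), with edgeR adjusted p of 0.184, 0.185 and 0.221. Pcdhac2 went from 27.6 ± 2.09 CPM (SD, n = 12) to 23.4 ± 3.20 CPM (SD, n = 11), and its paclitaxel mean was lower in every combination of sex and genotype, 4 of 4 (-0.23, SE 0.07, edgeR adjusted p = 0.275). Pcdhac2 is known as the isoform that serotonergic axons need to spread over their targets; serotonergic cell bodies lie in the brainstem, and 3 of their markers summed to 0.88 to 1.73 CPM in cord.

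The difference between the responses of the genotypes was tested directly, as knockout response minus wild-type response. Of the 56 members 42 had a positive difference (median 0.13, against -0.01 over all tested genes), and in the gamma cluster 19 of 21 were positive with a median of 0.26. The alpha median was 0.15 and the beta median 0.00. edgeR called 0 members, against 0% of all tested genes, and DESeq2 and limma voom called 0. Unadjusted, 7 were positive at p under 0.05 and 0 negative, against 4.51% positive and 3.90% negative of all tested genes. This count was 16 without wild-type male paclitaxel replicate 1, 11 without wild-type female vehicle replicate 3 and 4 without wild-type female paclitaxel replicate 2. Pcdhga3 (0.34, SE 0.11), Pcdhga11 (0.37, SE 0.13) and Pcdhgb1 (0.53, SE 0.20) had the smallest p, each with an edgeR adjusted p of 0.512. The gamma median was 0.16 without wild-type male paclitaxel replicate 2 and 0.35 without wild-type male paclitaxel replicate 1. Marker lists were positive here too: endothelial cells 5 of 5 (median 0.42), microglia 5 of 5 (0.21, with 3 at an unadjusted p under 0.05), neurons 5 of 5 (0.03) and skeletal muscle 4 of 4 (1.62), with 0 called by edgeR. Their part in the members' values was not tested. The wild-type and knockout responses share no samples.

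Knockout against wild-type over both treatments gave small negative differences in most members. Of 56, 49 had a lower mean in knockout cords (median -0.08), including 13 of 13 alpha members (median -0.09). With the ganglion-like library put back, 33 of 56 were lower (median -0.02) and the gamma median went from -0.08 to 0.02. Without wild-type male paclitaxel replicate 1 the alpha median was -0.05. edgeR called 0 members, against 0.0118% of all tested genes, and DESeq2 and limma voom called 0. There were 9 lower and 0 higher members at an unadjusted p under 0.05, against 1.62% lower and 1.74% higher of all tested genes. The count rested on single libraries: it was 17 without wild-type male paclitaxel replicate 2 and 5 without wild-type male paclitaxel replicate 1, knockout male paclitaxel replicate 3 or knockout female paclitaxel replicate 3. Pcdhgb6 went from 7.99 ± 1.16 CPM (SD, n = 11) in wild-type to 6.84 ± 1.26 CPM (SD, n = 12) in knockout cords (-0.22, SE 0.07), and Pcdhb2 (-0.25, SE 0.08) and Pcdhga2 (-0.21, SE 0.07) followed. Each of the 3 had an edgeR adjusted p of 1.00. Of the marker lists, 5 of 5 dorsal horn excitatory neuron markers (median -0.07) and 4 of 4 meningeal fibroblast markers (-0.05) also had lower means in knockout cords. The 4 tested of 5 sensory ganglion neuron markers had higher means (0.21), but apart from Prph their cord medians were 0.23 CPM or less. Of these 3 lists edgeR called 0 genes, and their part was not tested.

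**Figure D2:**
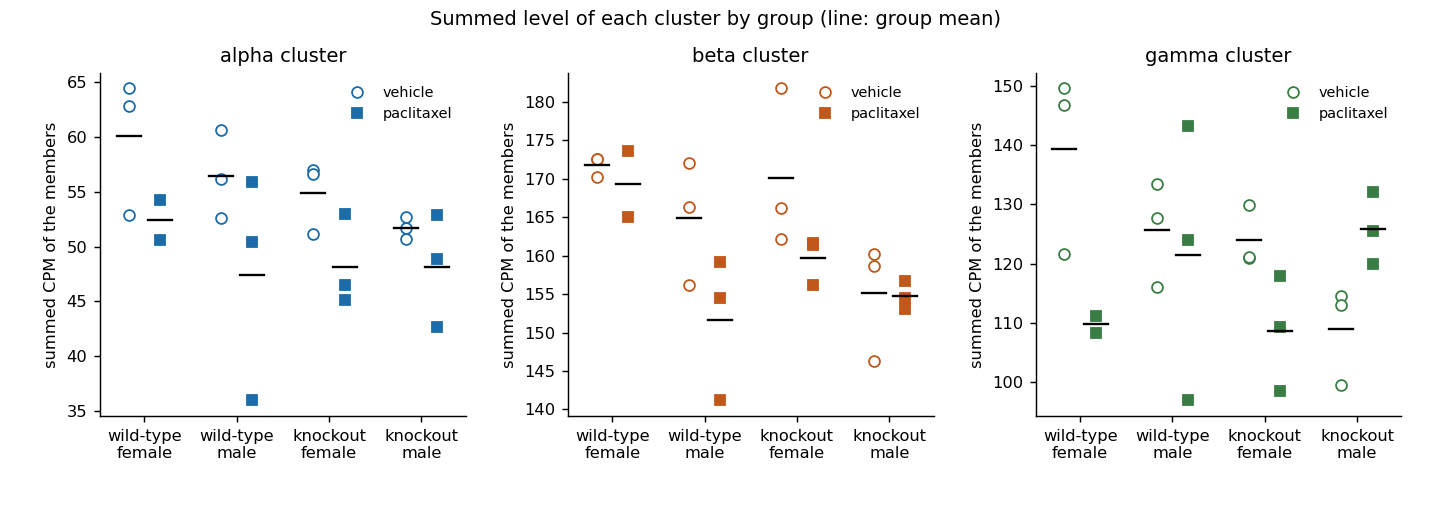
Summed CPM of the alpha, beta and gamma members in each cord, by genotype and sex; open circles are vehicle, filled squares paclitaxel, and lines are group means (3 cords a group, 2 for wild-type female paclitaxel). The vertical axes do not start at 0. In the gamma plot the paclitaxel cords lie below the vehicle cords in females of both genotypes, above them in knockout males, and overlap them in wild-type males.

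Males differed from females in single members of the alpha and beta clusters. Pcdhb8 fell by 0.43 on the log2 scale in males (SE 0.09, edgeR adjusted p = 0.0183) and Pcdha8 by 0.75 (SE 0.19, edgeR adjusted p = 0.0485). In beta 20 of 22 members had lower means in males (median -0.11), and in alpha 11 of 13 (-0.07), against 11 of 21 in gamma (-0.02) and a median of 0.00 over all tested genes. The 2 called members are 3.57% of the 56, against 0.918% of all tested genes. DESeq2 called 5 members and 583 of all 25372 tested genes, and limma voom 3 and 217. At an unadjusted p under 0.05, 13 members were lower, 10 of them beta genes, and 0 were higher, against 6.67% lower and 6.49% higher of all tested genes.

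Pcdhb8 (5.57 ± 0.993 CPM in 12 males, 7.49 ± 1.08 CPM in 11 females, SD) is a gene of the beta cluster. Under vehicle its levels were 8.93, 7.89 and 6.88 CPM in wild-type females and 6.80, 7.44 and 5.36 CPM in wild-type males. In knockout cords under vehicle they were 8.05, 9.08 and 5.97 CPM in females and 4.27, 6.38 and 5.59 CPM in males. Under paclitaxel they were 6.89 and 7.09 CPM in wild-type females, 5.98, 4.10 and 5.13 CPM in wild-type males, 6.26, 6.77 and 8.61 CPM in knockout females and 5.49, 5.63 and 4.61 CPM in knockout males. The male mean was lower in 4 of 4 combinations of genotype and treatment, with no overlap in the 2 under paclitaxel and overlap in the 2 under vehicle. The call held in 22 of 23 fits that each left out 1 library, the exception being the fit without wild-type female paclitaxel replicate 1 (edgeR adjusted p = 0.0805).

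Pcdha8 was low throughout, at 24 to 144 counts per cord. The males were at 0.485 ± 0.178 CPM (SD, n = 12) and the females at 0.810 ± 0.260 CPM (SD, n = 11), and the male mean was lower in 4 of 4 combinations. The highest cord was wild-type female vehicle replicate 1 at 1.505 CPM, and without it the log2 fold change was -0.60 (edgeR adjusted p = 0.0965). The call held in 5 of the 23 fits that left out 1 library each: without wild-type female vehicle replicate 2 or 3, wild-type male vehicle replicate 1, knockout female paclitaxel replicate 1 or knockout male vehicle replicate 2. Pcdhb6 came next, with 4.74 ± 0.673 CPM in males and 5.85 ± 0.992 CPM in females (-0.29, SE 0.07, edgeR adjusted p = 0.0526). edgeR called it when wild-type male paclitaxel replicate 1 or knockout female vehicle replicate 2 was left out. Of the 22 tested beta members, 10 had a lower male mean in all 4 combinations, as had 4 of 13 alpha and 0 of 21 gamma members. The same count was not made over all tested genes, and the members share the same cords, so it only describes them. Beside this, 5 of 5 astrocyte and 4 of 4 meningeal fibroblast markers had lower means in males (medians -0.09 and -0.10). The 4 tested of 5 sensory ganglion neuron markers had higher means (0.30), but apart from Prph their cord medians were 0.23 CPM or less. Of these 3 lists edgeR called 0 genes, and their part was not tested.

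**Figure D3:**
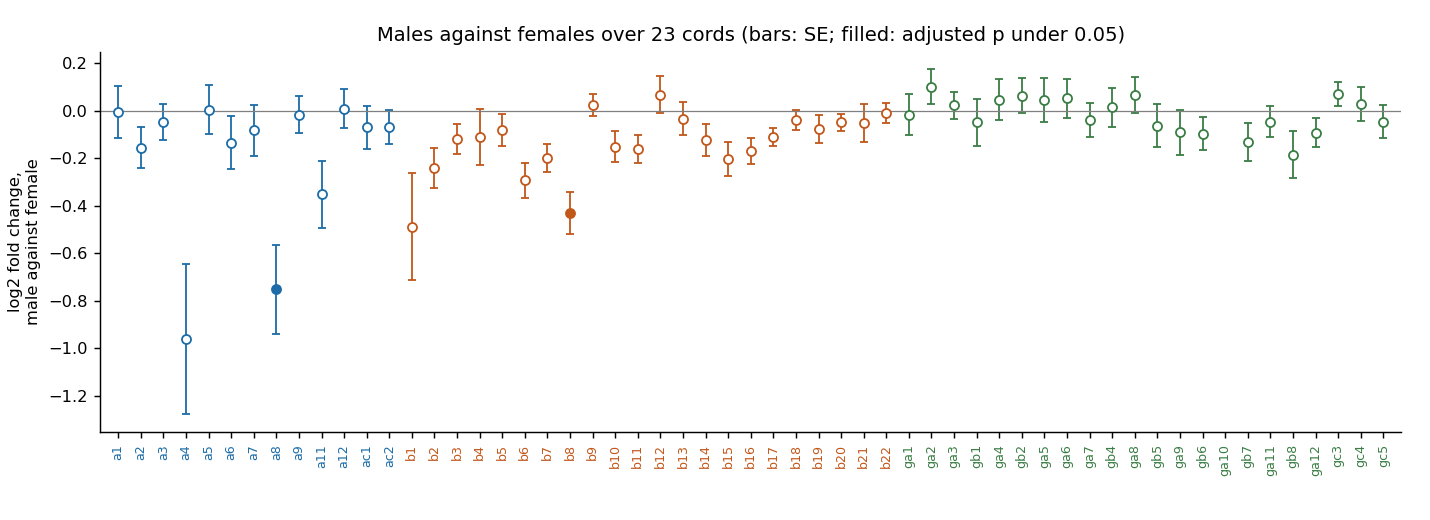
Log2 fold change of males against females for each tested member in chromosome order, with bars of 1 SE, over 23 cords (12 males, 11 females). The 2 filled points, Pcdha8 and Pcdhb8, have an adjusted p under 0.05; most beta points lie below 0, and the gamma points lie on both sides of it.

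The response to paclitaxel differed between the sexes in 2 gamma members. This contrast, male response minus female response, was added after values had been seen. The male response of Pcdhgb6 was higher by 0.64 (SE 0.14, edgeR adjusted p = 0.0171) and that of Pcdhga2 by 0.50 (SE 0.15, edgeR adjusted p = 0.0488), both variable gamma genes. Of 21 gamma members 20 had a positive difference (median 0.36), against 12 of 22 beta (0.00), 8 of 13 alpha (0.02) and a median of -0.01 over all tested genes. The 2 called members are 3.57% of the 56, against 4.96% of all tested genes. By edgeR the members' share of calls was thus not above the background. DESeq2 called 10 of the 56 and 2376 of all 25372 tested genes, so there the members' share was the larger. With limma voom 1 member was called, and 1202 of all tested genes. At an unadjusted p under 0.05, 17 members were positive, 15 of them gamma, and 2 negative, against 10.5% positive and 9.87% negative of all tested genes.

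The levels in each cord were as follows. Pcdhgb6 in females was at 9.73, 9.92 and 7.17 CPM under vehicle and 7.89 and 6.44 CPM under paclitaxel in wild-type cords, and at 7.73, 8.41 and 8.55 CPM under vehicle and 7.57, 5.64 and 5.27 CPM under paclitaxel in knockout cords. In males it was at 7.62, 7.43 and 7.35 CPM under vehicle and 9.45, 7.45 and 7.46 CPM under paclitaxel in wild-type cords, and at 6.41, 5.73 and 4.81 CPM under vehicle and 7.33, 7.83 and 6.86 CPM under paclitaxel in knockout cords. Paclitaxel cords were below vehicle cords in knockout females and above them in knockout males without overlap, while both wild-type pairs of groups overlapped. Its log2 fold changes were -0.35 (SE 0.15) in wild-type females, -0.41 (SE 0.14) in knockout females, 0.13 (SE 0.14) in wild-type males and 0.38 (SE 0.14) in knockout males. For Pcdhga2 they were -0.44 (SE 0.16), -0.24 (SE 0.14), 0.01 (SE 0.14) and 0.31 (SE 0.14) in the same order.

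Of the 23 fits that left out 1 library, 22 called Pcdhgb6, and the fit that dropped wild-type female paclitaxel replicate 2 did not (edgeR adjusted p = 0.0514). Pcdhga2 was called in 5 of 23: without wild-type male paclitaxel replicate 2 or 3, knockout female vehicle replicate 2, wild-type female vehicle replicate 3 or knockout male vehicle replicate 1. The number of members called was 11 without wild-type male paclitaxel replicate 2, 8 without wild-type female vehicle replicate 3 or knockout male vehicle replicate 1, and 4 when knockout female vehicle replicate 2 or paclitaxel replicate 1 was dropped. Over all tested genes, 1530 of 25282 were called without wild-type male paclitaxel replicate 2. Without wild-type female vehicle replicate 3 it was 1913 of 25290, and without knockout female vehicle replicate 2 it was 1444 of 25287. Dropping wild-type female paclitaxel replicate 2 gave 0 called members. The number of called members was 2 without knockout male paclitaxel replicate 1, wild-type male paclitaxel replicate 3 or wild-type male vehicle replicate 1. Over all tested genes those fits called 1120 of 25312, 1646 of 25265 and 1022 of 25291 in that order. In each of the other 14 fits 1 member was called.

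Taken by genotype and sex, the gamma sum in wild-type females was 150, 147 and 122 CPM under vehicle and 111 and 108 CPM under paclitaxel. In knockout females it was 130, 121 and 121 CPM under vehicle and 118, 109 and 98.6 CPM under paclitaxel. In knockout males it was 115, 113 and 99.5 CPM under vehicle and 132, 126 and 120 CPM under paclitaxel. Females of both genotypes were lower under paclitaxel and knockout males higher, with no overlap in these 3. Wild-type males overlapped, at 133, 116 and 128 CPM under vehicle and 143, 97.0 and 124 CPM under paclitaxel.

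Gene by gene, 18 of 21 gamma members had a lower mean under paclitaxel in wild-type females (median -0.36), 15 in wild-type males (-0.08) and 19 in knockout females (-0.18). In knockout males 21 of 21 were higher (median 0.19), with fold changes of 0.05 to 0.57. edgeR called 0 members in each of the 4. Of all tested genes it called 0% in wild-type females, 0% in wild-type males, 0% in knockout females and 0.784% in knockout males. The counts at an unadjusted p under 0.05 within these groups were read from edgeR alone. Wild-type females had 18 members lower and 1 higher, against 6.75% and 5.42% of all tested genes (12.2% in either direction). Wild-type males had 5 lower and 0 higher, against 6.30% and 5.85% (12.2%), so their members are near the background. Knockout females had 6 lower and 0 higher, against 2.46% and 3.03% (5.49%). Knockout males had 0 lower and 9 higher, against 8.32% and 7.86% (16.2%). These 9 of 56 are near the share of all tested genes in either direction, but all 9 were higher, where that share is 7.86%. The smallest adjusted p of a gamma member in knockout males was that of Pcdhgc5, a C-type gene (0.44, SE 0.14, edgeR adjusted p = 0.0973), with 5.01, 4.60 and 4.43 CPM under vehicle and 6.26, 6.01 and 6.73 CPM under paclitaxel. In wild-type females it was that of Pcdhga3 (-0.56, SE 0.13, edgeR adjusted p = 0.184).

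**Figure D4:**
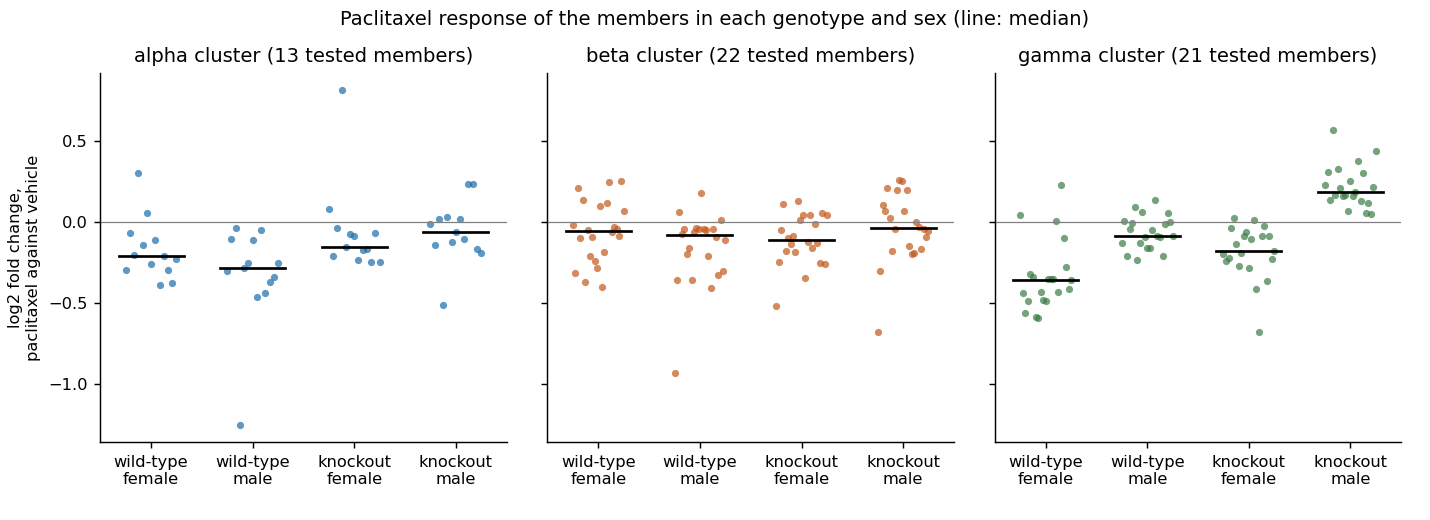
Log2 fold change of paclitaxel against vehicle in each combination of genotype and sex; each dot is 1 tested member (13 alpha, 22 beta, 21 gamma) and the line is the median. All 21 gamma dots of knockout males lie above 0, while the gamma medians of the other 3 combinations are -0.36, -0.08 and -0.18.

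Markers of other cells moved with the sex difference of the response too, in which edgeR called 4.96% of all tested genes. Of 5 endothelial markers 5 had a positive difference (median 0.47, 0 called). Their sum was 96.8 to 140 CPM in knockout males under vehicle and 177 to 190 CPM under paclitaxel, groups that do not overlap, as for the gamma sum. Of 5 inhibitory neuron markers 5 were positive (median 0.31) and 3 were called, namely Gad1, Slc32a1 and Pax2. Of 5 neuron markers 5 were positive (median 0.22) and 2 were called. Called markers, all positive, were also found among microglia (2 of 5, list median 0.28), astrocytes (1 of 5, 0.20), dorsal horn excitatory neurons (1 of 5, 0.29) and oligodendrocytes (1 of 5, -0.03). All 4 meningeal fibroblast markers were positive (0.18, 0 called). Of 4 skeletal muscle markers, which cord should lack, 4 were positive (median 3.17) and Acta1 was called; their sum was 0.67 to 31.9 CPM over the 23 cords and highest in a knockout male under paclitaxel. The part of these cells in the gamma difference was not tested.

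The genes that choose, process or relay protocadherins were read beside the members. Among 20 genes of promoter choice and chromatin looping, 0 were called in wild-type, knockout or both genotypes together under paclitaxel, in the genotype difference, in the interaction of genotype and treatment or between the sexes. With an unadjusted p under 0.05 there were 2, 9, 7, 1, 2 and 4 of them in that order, and these lists were read from edgeR alone. At that p, 3.97% of all tested genes were lower and 3.99% higher in wild-type cords, and 5.77% and 5.51% in knockout cords. The same shares were 5.75% and 4.43% over both genotypes and 1.62% and 1.74% for the genotype difference. They were 3.90% and 4.51% for the interaction and 6.67% and 6.49% between the sexes. In the sex difference of the response 1 was called positive, Smc1a, a cohesin subunit (0.32, SE 0.07, edgeR adjusted p = 0.0164). The 2 called negative were Stag2, also of cohesin (-0.25, SE 0.07, edgeR adjusted p = 0.0323), and Pds5a, a cohesin regulator (-0.22, SE 0.06, edgeR adjusted p = 0.0346). Ctcf had 0.07 (SE 0.05, edgeR adjusted p = 0.525). Of all tested genes edgeR called 4.96% in this contrast. At an unadjusted p under 0.05 there were 11 of the 20 looping genes, against 9.87% of all tested genes lower and 10.5% higher.

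Of 16 processing and signalling partners, 0 were called in the same 6 comparisons (2, 2, 4, 1, 3 and 5 at an unadjusted p under 0.05). In the sex difference of the response 4 were called positive and 0 negative: Ptk2b, a focal adhesion type kinase that protocadherins inhibit, at 0.51 (SE 0.12), Cyfip1 and Wasf1, of the WAVE actin complex, at 0.26 (SE 0.06) and 0.25 (SE 0.07), and Nlgn2, the neuroligin of inhibitory synapses, at 0.20 (SE 0.05). Of 12 non-clustered protocadherins, relatives that lie outside the 3 clusters, 0 were called in the 6 comparisons (2, 5, 5, 0, 2 and 1 at an unadjusted p under 0.05). The shares of all tested genes given for the looping genes apply to the partners and to these relatives too, also for the sex difference of the response. There 8 of 16 partners and 7 of 12 relatives had an unadjusted p under 0.05. In the sex difference 3 of 12 were positive (median -0.10), with Pcdh8 called positive (0.59, SE 0.14, edgeR adjusted p = 0.0204) and Pcdh19 called negative (-0.24, SE 0.07, edgeR adjusted p = 0.0323). Of 7 neighbouring genes on either side of the clusters 3 were positive (median -0.08, 0 called, 1 at an unadjusted p under 0.05).

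The ganglion-like library held another mix of clustered protocadherins. It had 97.5 CPM of alpha, 120 CPM of beta and 47.1 CPM of gamma members, so its alpha sum was above and its beta and gamma sums below all 23 cords. Alpha genes were 36.8% of its family counts, against 13.1 to 16.8% in cords, and gamma genes 17.8%, against 32.2 to 40.0%. This is 1 library, so there is no test. Of the tested members 37 were below every cord (2 alpha, 15 beta and 20 gamma), against 33.6% of all tested genes, and 7 above (6 alpha and 1 beta), against 25.3%. The median log2 ratio to the median cord was 0.33 for alpha, -0.51 for beta and -1.45 for gamma, against -0.12 over all tested genes.

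Pcdhac1 stood farthest above the cords, at 20.1 CPM against 2.35 to 5.51 CPM, or 4.68 times the median cord. Pcdhb4, among the lowest beta genes in cord, was at 4.59 CPM against 0.94 to 2.17 CPM, and Pcdhac2 at 50.9 CPM against 16.3 to 31.6 CPM. Pcdha7 (3.04 CPM) and Pcdha6 (2.51 CPM) were also above every cord. In the other direction Pcdhgc5 was at 1.02 CPM against 3.89 to 7.24 CPM, 5.53 times lower than the median cord. Pcdhgb8 (0.295 CPM), Pcdhgb6 (1.91 CPM) and Pcdhga8 (1.27 CPM) were below every cord as well. Pcdha8 was at 0.127 CPM, 12 counts, and Pcdha4 at 1 count, which is too few for a ratio. Pcdhga1 was the tested gamma member that lay within the cord range.

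**Figure D5:**
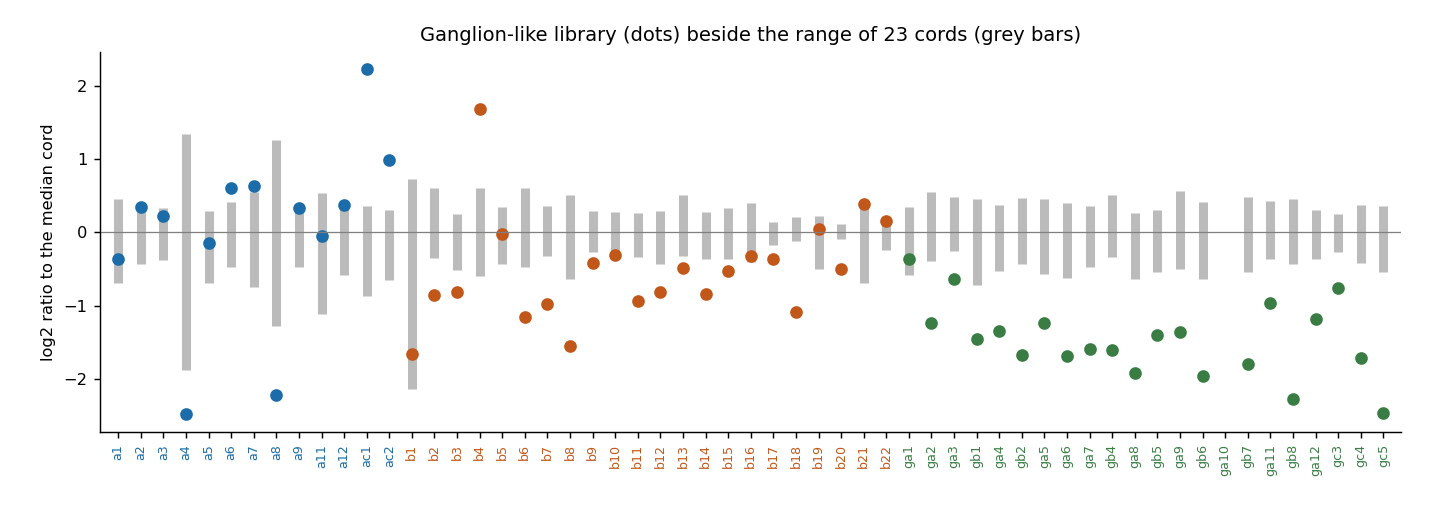
Log2 ratio of each member in the ganglion-like library (dots) to the median of 23 cords, in chromosome order, with grey bars for the range of the cords. Pcdhac1 and Pcdhb4 lie far above their bars, and nearly all gamma dots lie below theirs; there is 1 such library, so no error is shown for the dots.

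This library carried markers of several other cells beside the neurons of ganglia. Its 4 Schwann and satellite cell markers summed to 2314 CPM, against 152 to 371 CPM in cords, and its 4 skeletal muscle markers to 358 CPM. Its 5 inhibitory neuron markers summed to 24.4 CPM, against 869 to 1121 CPM, and its 5 astrocyte markers to 192 CPM, against 4668 to 5578 CPM. The 12 non-clustered protocadherins summed to 481 CPM, against 692 to 862 CPM. Which of its cells carried the alpha and which the gamma transcripts was not tested. With this library put back in its labelled group, the median response of gamma members in wild-type cords was -0.35 instead of -0.20, and that of Pcdhac1 turned from -0.36 to 0.29 (edgeR adjusted p = 0.531 and 0.696).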

How the data were processed

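The deposited table holds counts of reads per gene, and per the file headers they were made with featureCounts 1.6.2 over exons grouped by gene name on Ensembl GRCm38 release 96. Per the command in that header, strand was not used, mates were counted singly, and reads overlapping several genes or mapping to several places were dropped. The submitters' processing notes name STAR for alignment, with no version.

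CPM are counts scaled to the library total. Exon bases belonging to 1 gene were found from the exon coordinates that the deposited table gives for each gene. Fold changes and tests came from edgeR 4.0.16 in R 4.3.3 (TMM factors, filterByExpr over the 8 groups, quasi-likelihood test, Benjamini-Hochberg adjustment over 25372 genes) on 23 libraries. DESeq2 1.42.0, limma 3.58.1 voom, other scalings and filters, and fits leaving out each library were tried as alternatives. The edgeR procedure was tested on simulated data. No 2 replicates agreed within counting noise (chi-square over its degrees of freedom was 8.98 or more).

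The members, lists and tests were chosen with earlier results of these data known. The sex difference of the response and the 4 contrasts within genotype and sex were added after values were seen, as were the counts of lowest and highest libraries and of directions by group. Members given in full were those called in a contrast, the 3 with the smallest p in each, the 3 highest and 2 lowest per own kilobase in each cluster, the C-type genes, Pcdhga3, and the 6 farthest from the cords in each direction in the ganglion-like library. Other members and the called genes of the lists were named after their values were seen. Sequences are not reported here.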

Additional observations from a re-analysis of the deposited data

Results flagged for a closer look

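In 7 of 140 sets of values (5%), the highest or lowest cord lay apart from the rest by Dixon's criterion, and chance alone gives about 1 in 20. Wild-type male paclitaxel replicate 2 was low in 2 of them: its alpha sum was 36.0 CPM, with 50.4 to 55.9 CPM in the other 4 wild-type paclitaxel cords, and its Pcdhac2 level was 16.3 CPM, with 24.8 to 27.3 CPM in the others. Pcdhb17 was low in knockout male vehicle replicate 1, at 13.2 CPM against 14.8 to 15.6 CPM in the other knockout vehicle cords. The remaining 4 were high. Pcdhb21 was at 5.04 CPM in wild-type male vehicle replicate 1 (others 3.62 to 4.08 CPM) and Pcdhgb1 at 4.03 CPM in wild-type female vehicle replicate 2 (others 2.67 to 3.17 CPM). Pcdhb9 was at 19.4 CPM in knockout female vehicle replicate 1 (others 14.1 to 15.5 CPM), and Pcdhgb8 at 2.00 CPM in knockout female vehicle replicate 2 (others 1.198 to 1.446 CPM).

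The response to paclitaxel differed between males and females, by edgeR's test of the difference itself, in Pcdhgb6 (log2 difference 0.64) and Pcdhga2 (0.50). This contrast was added after values had been seen, and 4.96% of all tested genes were called in it. Leaving out 1 library at a time, Pcdhgb6 kept its call in 22 of 23 fits and Pcdhga2 in 5. With all 24 libraries 0 members were called.

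In the ganglion-like library, which entered no comparison between groups, 7 members were above every cord. They are Pcdhac1 (20.1 CPM), Pcdhac2 (50.9 CPM), Pcdhb4 (4.59 CPM), Pcdha2 (3.49 CPM, cords 2.03 to 3.36 CPM), Pcdha6 (2.51 CPM, cords 1.196 to 2.214 CPM), Pcdha7 (3.04 CPM, cords 1.16 to 2.88 CPM) and Pcdha12 (3.84 CPM, cords 1.99 to 3.71 CPM).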

How the results depend on the processing

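Members called by edgeR changed in number as follows. With no filter on low counts the numbers were 4 in wild-type cords, 1 in knockout cords, 2 over both genotypes, 4 between the sexes and 11 in the sex difference of the response. Of all 41809 genes in that fit 254, 470, 338, 749 and 2181 were called in that order. With DESeq2 the numbers of members were 1 in wild-type cords, 3 over both genotypes, 5 between the sexes and 10 in the sex difference. Of all 25372 tested genes DESeq2 called 4, 167, 583 and 2376 in that order. With all 24 libraries both sex contrasts gave 0 members, against 28 and 0 of 24725 tested genes. With counts halved each gave 1, against 241 and 1293 of 21966 tested genes. In the sex difference limma voom gave 1 and DESeq2 size factors in place of TMM gave 1, against 1202 and 1250 of 25372 tested genes. The replicate block gave 9 there, against 1891 of 25372 tested genes. Replicate numbers did not pair the mice (median correlation of same-numbered cords 0.0274, above 0.1 in 23 of 77 pairs). In the 6 other contrasts the block moved no count of calls by over 1.5 times. Between the sexes, though, Pcdha8 lost its call under the block (edgeR adjusted p = 0.0589) and Pcdhb6 gained one (edgeR adjusted p = 0.0288). Members at an unadjusted p under 0.05 with 24 libraries were 2 in knockout cords, 8 over both genotypes, 2 between genotypes and 5 between the sexes, and with no filter 12 in the genotype-by-treatment difference.

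Leaving out 1 library at a time, the unadjusted counts ran from 8 to 25 in wild-type cords, 3 to 7 in knockout cords, 8 to 19 over both genotypes, 4 to 16 in the genotype-by-treatment difference and 5 to 17 between genotypes. Called members ran from 0 to 2 between the sexes and 0 to 11 in the sex difference. With the deposited gene length in place of own exon, the levels were 0.702 CPM per kilobase for alpha and 1.04 for gamma. No call reversed direction, and the fold changes of the members with the smallest p in each contrast kept their sign in every alternative run. Uncalled cluster medians near 0 did turn. With 24 libraries the gamma median went from -0.08 to 0.02 between genotypes and from -0.02 to 0.05 between the sexes, and the alpha median of the sex difference from 0.02 to -0.01. Leaving out 1 library, the gamma median ran from -0.02 to 0.05 in knockout cords and from -0.06 to 0.03 between the sexes, and the beta median from -0.01 to 0.05 in the genotype-by-treatment difference. In the sex difference it ran from -0.05 to 0.11 for alpha and from -0.03 to 0.03 for beta. Of the 56 members, those whose sign differed with 24 libraries numbered 5 in wild-type cords, 0 in knockout cords, 3 over both genotypes, 16 between genotypes, 15 in the genotype-by-treatment difference, 11 between the sexes and 9 in the sex difference. The cause of these differences was not tested. Depth limits Pcdha4, Pcdhb1 and Pcdha8 most, and shared exons limit all alpha and gamma members.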
